A study of Sus scrofa with 70 samples.

Results

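Of the 110996 isoforms that long-read sequencing gave in 5 reproductive glands of the boar, 33150 (29.9%) were classed as transcripts of an annotated gene with a splice donor or acceptor absent from the Ensembl annotation, had canonical junctions, carried a predicted coding sequence and were not predicted to be degraded by nonsense-mediated decay (NMD). They were chosen in the deposited isoform table by 4 columns. The SQANTI3 class had to be NNC, in which a transcript of a known gene uses a splice site outside the reference catalog (55774 isoforms). All junctions then had to be canonical (44593 left), the isoform had to be called coding (42678 left), and predicted NMD had to be false. No abundance entered the choice. These NNC coding isoforms came from 9250 genes, with a median of 2 per gene, 1 in each of 3224 genes and more than 10 in each of 531 genes. The testis, the epididymis and 3 accessory glands (vesicular, prostate and bulbourethral) were taken from adult boars of 12 months, of the Banna mini-pig inbred line (BMI) and of Diannan small-ear pigs (DSE), the non-inbred breed from which BMI was bred. No group was treated. Iso-seq, which reads whole cDNA molecules, was made from 1 library per breed and gland (10 libraries), and paired-end RNA-seq from 3 libraries per breed and gland (30 libraries). RNA came from 30 tissue samples by the study's methods, but whether the 3 of a group came from 3 boars is not stated, so p-values measure the spread between these samples. In the Iso-seq table, 231413 to 458697 full-length reads per library were assigned to isoforms, which is not the whole depth of a library, and RNA-seq abundance was given as TPM, a relative scale that keeps no depth.

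An intron is removed between a donor, which nearly always begins with GT and now and then with GC, and an acceptor, which ends with AG. A gene can thereby give transcripts that differ in where they start, which exons they hold, or where an exon ends by a few bases. A different first exon usually comes with a different promoter, and often leaves the protein as it is when translation starts further on. The testis is known for a transcriptome of unusual breadth, much of it from meiotic and post-meiotic germ cells, whereas epididymis and accessory glands are secretory epithelia that add the fluid in which sperm are carried.

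The splice sites below are those of isoforms on which the comparisons between testis and the other glands turn. The first set belongs to isoforms of which nearly all signal was in testis. Each sequence is 30 bases of the reference genome (Sscrofa11.1), written 5′ to 3′ on the strand of the gene, with 10 exonic and 20 intronic bases. Capitals mark the 2 intronic bases at the splice site, so a donor has its exon before the capitals and an acceptor after them.
SULT1C3 PB.12098.2, donor of a new first exon, chr3:47864313-47864342, minus strand: agagatcaagGTctgtgagtctctgtcctt
SULT1C3 PB.12098.2, new acceptor of exon 2, chr3:47856934-47856963, minus strand: atgcacatctttcttttcAGcccctgggaa
CRISP2 PB.17599.1, donor of a new first exon, chr7:43770915-43770944, minus strand: tggagttaggGTaagaattagagcaggctg
CRISP2 PB.17599.1, new acceptor of exon 2, chr7:43770064-43770093, minus strand: tctcttttccctgttccaAGactatgaaac
YBX2 PB.3917.208, new acceptor of exon 7, chr12:52636524-52636553, minus strand: cttgggccctgtcccctcAGggtccccgct
YBX2, Ensembl acceptor of the same exon, chr12:52636503-52636532, minus strand: gtccccgcttttttccccAGgccttttcgc
PEBP4 PB.5706.33, donor of a new first exon, chr14:7185100-7185129, minus strand: actgctctggGTaagtgacagggctcttct

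The second set belongs to isoforms with lower abundance in every testis library than in any other. KRT18 is shown with the Ensembl donor because its new donor was one of the rarer GC donors.
KRT18 PB.14368.4, new donor of exon 3, chr5:18219471-18219500, plus strand: ccacgaggagGCaagcaggggccgcaagac
KRT18, Ensembl donor of the same exon, chr5:18219493-18219522, plus strand: cgcaagacaaGTctgggtcggggagtagag
TSPAN1 PB.17014.7, donor of a new first exon, chr6:165229369-165229398, minus strand: gccccagcagGTgatggcatagggtcaaga
CARHSP1 PB.11890.1, donor of a new first exon, chr3:33834439-33834468, plus strand: ggatcaccagGTaggagcttctcccgggac
IQGAP1 PB.17720.6, donor of a new first exon, chr7:53020676-53020705, plus strand: cactatggctGTgagtgcgggctccgcagc

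The third set belongs to isoforms that changed their share of a gene whose own level was not called different. The 2 isoforms of ARL1 differ in their first exon and share the acceptor that follows it, and the 2 isoforms of CXXC5 share an intron inside an annotated exon, of which the donor and acceptor are given.
ARL1 PB.14980.2, donor of a new first exon, chr5:82795870-82795899, plus strand: cgcattcctgGTtggcggattcgccacttt
ARL1 PB.14980.1, donor of a new first exon, chr5:82795757-82795786, plus strand: aaggacccagGTaaagttgggtcaaccccc
ARL1, acceptor of exon 2 in both isoforms, chr5:82796018-82796047, plus strand: attttttttttctctcgtAGgttctacagt
KLF5 PB.3115.1, donor of a new first exon, chr11:45365867-45365896, plus strand: cccccaaaagGTaaaatactgctttttgtg
TTC39B PB.1643.47, donor of a new first exon, chr1:207372804-207372833, plus strand: aaaggagaagGTaaggggagaaaggcagag
FHL1 PB.21651.10, donor of a new first exon, chrX:111329114-111329143, plus strand: tctagaaacaGTgagttccatatgagtggg
KLC3 PB.15783.4, donor of a new first exon, chr6:51728341-51728370, plus strand: ccggccaaggGTaaggtgtggtttgggggc
CXXC5 PB.11356.8, new donor of exon 1, chr2:141506638-141506667, plus strand: cctgaaattgGTaaatagtccctattttcc
CXXC5, donor of exon 2 in both isoforms, chr2:141511661-141511690, plus strand: tgctctggagGTaacggcgccttagaggga
CXXC5, acceptor of exon 3 in both isoforms, chr2:141513203-141513232, plus strand: ccgcctcccccccccaccAGaaggtgatgc
STARD10 PB.19443.10, donor of a new first exon, chr9:7326331-7326360, minus strand: gcgggcacagGTgagcgggccggccggccg
PRDX4 PB.21104.4, new donor of exon 6, chrX:19815644-19815673, plus strand: tagtgaaactGTaagtcaagttgatttttc
ASPH PB.13320.37, acceptor of a new last exon, chr4:71996117-71996146, plus strand: atttccccttatttttgcAGatacttaaag

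Most NNC coding isoforms departed from the Ensembl transcripts at their 5′ side. At least 1 new site was found in 33149 of the 33150, and 52.2% had exactly 1. A new donor alone was present in 37.2%, a new acceptor alone in 17.5%, and both in 45.3%. A site shifted within or beside an annotated exon occurred in 58.0% of isoforms, a new first exon in 42.1%, a new internal exon in 26.5%, a new last exon in 7.41% and an intron inside an annotated exon in 4.96%, and 1 isoform can have several. All new sites lay 5′ of the predicted coding sequence in 56.8% and within it in 27.2%. The coding blocks were identical to those of an Ensembl transcript of the gene in 15.5%. In length and exon number the NNC coding isoforms (medians of 3458 bases and 12 exons) lay near isoforms that combine known sites in a new way (NIC, chosen by the same other columns, 16365 isoforms with medians of 3615 bases and 11 exons). The column for support of the 5′ end, which by the study's methods was scored against starts of the Ensembl annotation and so is not independent of whether a first exon is new, was true for 66.6% of them, against 85.6% of NIC isoforms and 93.6% of full splice matches to Ensembl (FSM).

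Counted once each, there were 20619 distinct new donors and 15312 distinct new acceptors. On the chromosomes, 38.6% of these donors and 38.7% of these acceptors were used by a RefSeq transcript of the same build, so a site outside Ensembl was often annotated elsewhere. The share was larger for sites read in more libraries. For sites read in all 10 Iso-seq libraries it was 88.5% for donors and 88.0% for acceptors, for sites read in both testis libraries and no other 20.5% and 30.1%, and for sites read in 1 library 16.9% and 16.7%. GT began 95.3% of the new donors, GC 4.32% and AT 0.373%, within the rule that junctions be canonical. Splice site scores, log2 odds of the bases around the site against the Ensembl sites of the annotation, had a median of 7.04 for new donors and 7.84 for Ensembl donors. New donors in RefSeq had a median of 7.72, and those absent from it 6.56. For acceptors the medians were 8.05 for new and 8.94 for Ensembl sites. New sites of both testis libraries alone had medians of 6.97 for donors and 8.14 for acceptors, those of other glands alone 6.89 and 7.56.

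Shifts had a sharp mode for each kind of site. Of the 6867 shifted acceptors, 486 (7.08%) lay 3 bases from an Ensembl acceptor, 210 upstream and 276 downstream, while shifts of 2 bases (84) and 4 bases (93) were rarer. Of the 5774 shifted donors, 218 (3.78%) lay 4 bases away, 122 upstream and 96 downstream, against 53 at 3 bases and 70 at 5 bases. Tandem acceptors of the NAGNAG kind and tandem donors 4 bases apart are known classes of alternative splicing. Within 100 bases of the annotated site and within the coding sequence, the shift was a multiple of 3 for 56.6% of 1531 donors and 66.9% of 2342 acceptors, and outside the coding sequence for 24.8% and 29.7%. The choice of isoforms without predicted NMD bears on this directly. In NNC isoforms with predicted NMD the shares were 28.3% of 685 donors and 31.2% of 1106 acceptors.

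**Figure D1:**
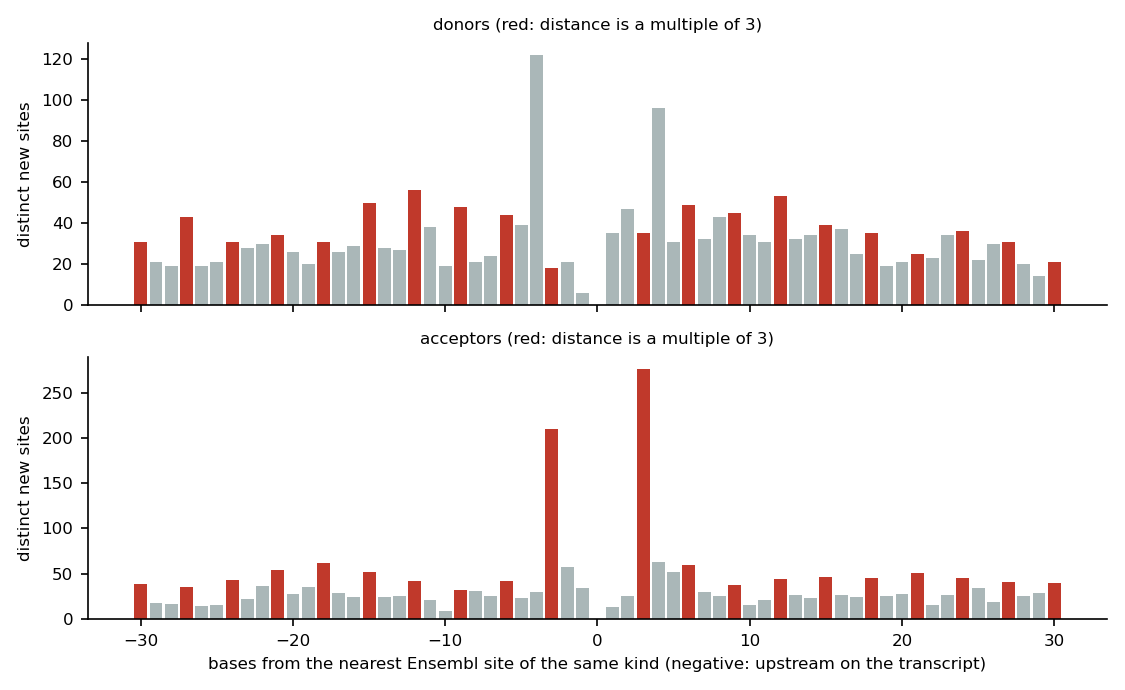
Distinct new donors (upper panel) and acceptors (lower panel) of NNC coding isoforms by their distance in bases from the nearest Ensembl site of the same kind, with distances that are multiples of 3 in red. Acceptors peak at 3 bases upstream (210 sites) and downstream (276 sites), donors at 4 bases upstream (122) and downstream (96).

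The full-length reads of NNC coding isoforms were unevenly spread over the glands. They amounted to 657387 reads, with a median of 3 reads per isoform. Exactly 2 reads, the lowest total in the table, were found for 37.8% of isoforms, 20.8% were read in 1 library, and 1263 (3.81%) were read in all 10. In the Iso-seq table they took 26.3% of the reads in BMI testis and 26.6% in DSE testis, against 14.0% to 19.2% in the 8 other libraries (mean 26.4% ± 0.216 SD, n = 2, and 16.4% ± 1.66, n = 8). The 2 testis libraries lay above all others, and in the exact two-sided permutation test p was 0.0222, the smallest that 45 splits can give. The 95% Wilson intervals of these shares, which cover counting error alone, were at most 0.16 percentage points to either side. Reads were found for 15279 of the NNC coding isoforms in BMI testis and 15035 in DSE testis, and for 8068 to 11204 in the others. After subsampling to the smallest total of assigned reads the numbers were 11213 and 11409 in testis and 6916 to 8236 in the others.

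Gland-restricted isoforms were mostly those of testis. Reads in both testis libraries and in no other were found for 5642 NNC coding isoforms (17.0%), against 574 for epididymis, 333 for bulbourethral gland, 253 for vesicular gland and 161 for prostate gland. The testis pattern was found for 4.88% of NIC isoforms, 4.94% of FSM isoforms and 9.94% of all isoforms. NNC coding isoforms with a new first exon as their one kind of change showed it in 24% (1636 of 6811), those with a shifted site alone in 9.93% (1130 of 11385). For the other glands, NNC coding isoforms lay near all isoforms. The shares were 1.73% against 1.85% for epididymis and 1.005% against 1.17% for bulbourethral gland. For vesicular gland they were 0.763% against 0.725%, and for prostate gland 0.486% against 0.573%. PB.6866.108 of PSP-I, strong in vesicular gland, had 3946 reads in BMI prostate gland and none in DSE prostate gland. The bearing of such reads on these counts was not tested. Testis libraries were also among those with the most assigned reads (455023 and 457778), and FSM isoforms had more reads each (median 21), so no test was made between classes.

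In RNA-seq, the share of all TPM held by NNC coding isoforms did not set testis apart. It was 15% to 20.2% in testis (median 19.4%), 16.8% to 24.1% in epididymis (median 17.2%), 19.3% to 23.8% in vesicular gland (median 20.3%), 8.32% to 15.8% in prostate gland (median 9.25%) and 11.4% to 13.3% in bulbourethral gland (median 12.1%), with 6 libraries each. Testis overlapped epididymis, vesicular gland and, through its lowest library, prostate gland, and lay above bulbourethral gland. The mean of 18.8% ± 1.93 (SD, n = 6) in testis and of 15.5% ± 5.0 (n = 24) elsewhere differed by 3.24 percentage points (exact two-sided permutation test, p = 0.134). Within BMI the difference was 4.51 (exact p = 0.145, 3 against 12 libraries) and within DSE 1.97 (exact p = 0.552). Secretory transcripts dominated some glands, and the 10 most abundant transcripts took 47.3% to 64.7% of the TPM of vesicular gland libraries. With the 10 most abundant transcripts of each library left out, the share was 18.7% to 23.1% in testis and 17.2% to 21.0% elsewhere, a difference of 3.57 points (exact p = 1.85e-05), with overlap through DSE testis replicate 2 alone among the testis libraries. This step also took out NNC coding isoforms, with 0% of TPM in testis, 9.51% to 16.1% in vesicular gland and 0% to 8.26% in prostate gland. The mean share fell from 21.1% to 19.1% in vesicular gland and rose in every other gland. With Iso-seq isoforms alone as the total, the share was 42.1% in testis and 41.8% elsewhere (exact p = 0.869). Of the transcripts at 1 TPM or more, NNC coding isoforms made up 27.8% to 30.3% in testis and 21.6% to 23.6% elsewhere, without overlap (exact p = 1.68e-06, the smallest possible).

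**Figure D2:**
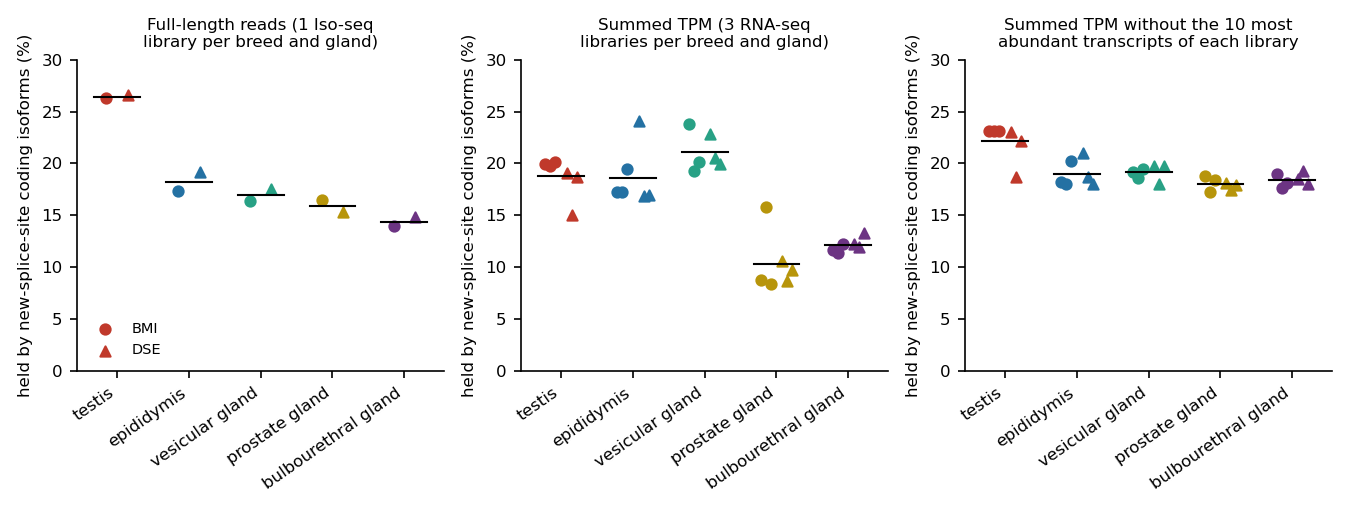
Percent of full-length reads (left), of TPM (middle) and of TPM without the 10 most abundant transcripts of each library (right) held by NNC coding isoforms, by gland. Circles are BMI and triangles DSE libraries, and lines are means over the libraries of a gland. In full-length reads both testis libraries (26.3% and 26.6%) lie above all others, in TPM the testis libraries (15% to 20.2%) overlap with epididymis, vesicular gland and prostate gland.

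3 RNA-seq libraries were taken as standing apart. DSE testis replicate 2 correlated with the other testis libraries at a median r of 0.812 across transcripts and had the lowest share among testis libraries (15%). Its 10 spermatid markers summed to 25941 TPM, against 78085 to 118528 in the other testis libraries, its 10 spermatocyte markers to 367 against 991 to 1429, and its 5 Leydig cell markers to 63514 against 18595 to 32398. BMI prostate gland replicate 2 correlated best with a vesicular gland library (r = 0.911), and DSE epididymis replicate 1 had a median r of 0.684 with its own gland. BMI prostate gland replicate 3 was not among the 3 left out together below. It had a median r of 0.783 with its own gland and of 0.815 with a bulbourethral gland library. In the 24 other libraries the spermatid markers summed to 0 to 1046 TPM and the spermatocyte markers to 0.987 to 17.7, while the 6 luminal epithelium markers summed to 14.4 to 41.5 TPM in testis and 729 to 2834 elsewhere. These markers set testis apart from the other glands and do not tell the other glands from one another. The share of TPM without the 3 libraries differed by 4.40 points (exact p = 0.0603). In whole glands, fewer cells of a type and less RNA per cell cannot be told apart, and the part of cell makeup in the differences below was not tested.

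Abundance was compared by limma on log2(TPM + 1), testis minus the mean of the 4 other glands, with calls at a Benjamini-Hochberg adjusted p below 0.05 over all transcripts tested and a difference of at least 1. Of the 33150 NNC coding isoforms, 31569 had TPM values and 18149 passed the filter of 1 TPM in 3 or more libraries. Called higher in testis were 6749 (37.2% of those tested) and called lower 1391 (7.66%), beside 28.4% higher and 9.54% lower among all 64661 transcripts tested. The filter itself weighs on the first number, since 5987 of the isoforms passed only with the testis libraries counted, and 4690 of the 6749 were among these. Among the 12162 that passed without counting testis libraries, 2059 (16.9%) were higher and 1391 (11.4%) lower, close to the 14.8% and 12.3% of the 50000 transcripts of all kinds that passed in this way. Without DSE testis replicate 2, BMI prostate gland replicate 2 and DSE epididymis replicate 1, 6949 were higher and 1564 lower. The genes moved too. Of the 6749, the summed TPM of the gene was called higher for 5465, not called for 1243 and lower for 41. Of the 1391, it was lower for 839, not called for 419 and higher for 133. Among the 9091 genes of these isoforms tested, 3328 were higher and 1175 lower, beside 34.6% and 12.7% of all 19796 genes.

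The isoforms with the largest rise, among those with all 6 testis libraries above all 24 others and at least 5 full-length reads in each testis Iso-seq library (1053 isoforms of 811 genes), are named here. This count and the like counts below only give the pool for naming, and were not taken over all transcripts. Isoforms named for their size of change were chosen on these values, so their differences are given as descriptions with no p-value. Of the 8 here, those of SULT1C3, SYCE3, CCDC136, TEX35 and PEBP4 passed the filter only with the testis libraries counted. PB.12098.2 of SULT1C3, a cytosolic sulfotransferase, had 1154, 2044 and 4517 TPM (lowest, median and highest) in testis and at most 0.948 TPM elsewhere, with 20 of the 24 libraries listed at 0. It had 2169 and 1216 full-length reads in the testis libraries and 2 elsewhere, and its log2 difference was 11.08 ± 0.20 (SE). Unlike the others named here, it was not lowest in DSE testis replicate 2, which had 3927 TPM. PB.17599.1 of CRISP2, a cysteine-rich secretory protein of the sperm acrosome and tail, had 396, 1333 and 1612 TPM in testis and at most 10.6 elsewhere, the highest in BMI epididymis replicate 2 (log2 difference 9.86 ± 0.30). Its coding blocks were those of an Ensembl transcript, and the new sites lay in its first 2 exons, 5′ of the coding sequence. PB.3917.208 of YBX2, a Y-box protein that binds mRNA in germ cells, uses an acceptor 21 bases upstream of the Ensembl one, a multiple of 3 within the coding sequence. It had 491, 1779 and 2093 TPM in testis and 0, 1.19 and 26.2 elsewhere (9.26 ± 0.33).

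The other 5 had a like pattern. PB.7995.3 of SPATA3, a spermatogenesis-associated gene, ends in a new last exon past its coding sequence and had 268, 923 and 934 TPM in testis and at most 9.89 elsewhere. PB.14048.1 of SYCE3, a part of the synaptonemal complex that holds chromosomes together in meiosis, had 186, 597 and 843 TPM and at most 4.41 elsewhere, and its 9 and 5 full-length reads were all in testis. PB.9501.2 of CCDC136, a coiled-coil protein, had 4 new sites, 1214 and 1965 testis reads, and 149, 508 and 563 TPM against at most 0.993. For each of these 3 genes and for TEX35, a testis-expressed gene (146, 543 and 695 TPM, at most 4.65 elsewhere), the gene as a whole rose as well. PB.5706.33 of PEBP4, a phosphatidylethanolamine-binding protein, differed in that the gene was also strong elsewhere, with up to 3142 TPM outside testis, though higher in testis on average (log2 difference 3.04 ± 0.34, adjusted p = 1.27e-08). The isoform held 90.9% to 92.8% of the gene's TPM in testis, and 0% to 0.23% elsewhere but for 32.4% in DSE vesicular gland replicate 1. Log2 differences of these 5 were 8.59 to 9.12.

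**Figure D3:**
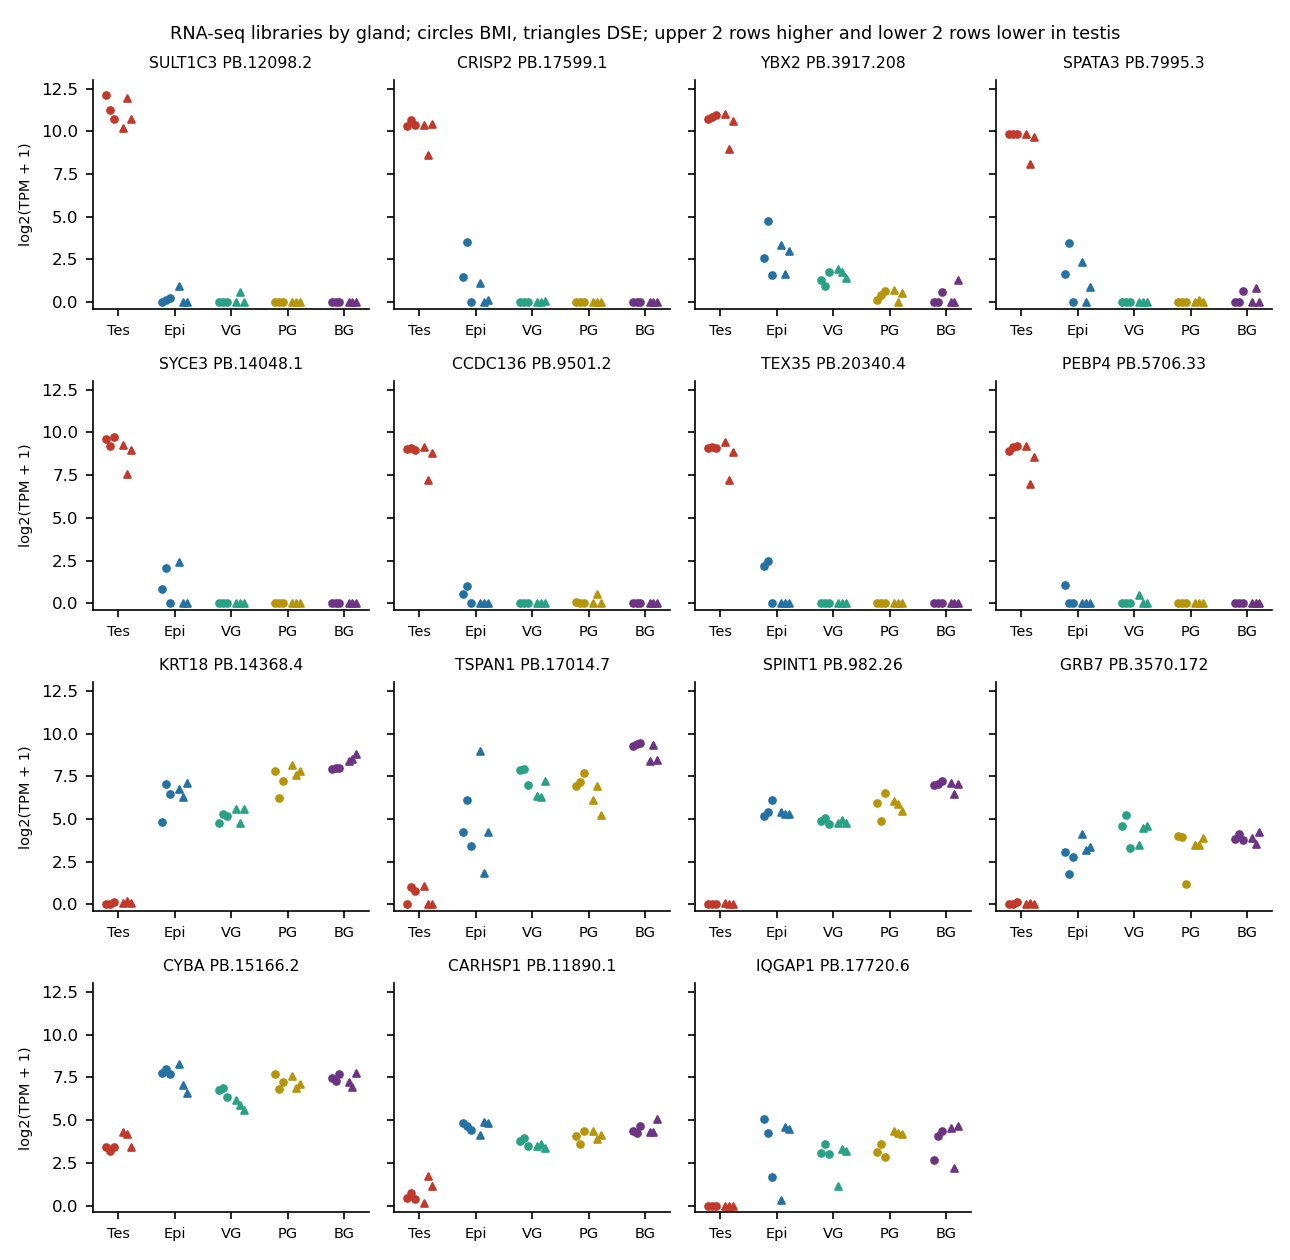
Abundance of 15 named isoforms as log2(TPM + 1) in 30 RNA-seq libraries by gland (Tes testis, Epi epididymis, VG vesicular, PG prostate, BG bulbourethral), with circles for BMI and triangles for DSE. In the upper 2 rows all testis points lie above all others, in the lower 2 rows below, and in 7 of the 8 upper panels the lowest testis point is DSE testis replicate 2.

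In the other direction, isoforms were named with all testis libraries below all others and at least 5 reads in at least 4 other Iso-seq libraries (26 isoforms of 24 genes, by another rule on reads than above). PB.14368.4 of KRT18, a keratin of simple epithelia, had 0, 0.047 and 0.129 TPM in testis and 25.7, 134 and 441 elsewhere, with 246 to 441 in bulbourethral gland (log2 difference -6.76 ± 0.23). None of its 168 full-length reads was from testis. Its new donor lies 22 bases upstream of the Ensembl donor, and the acceptor that follows lies 4 bases upstream of the Ensembl acceptor. PB.17014.7 of TSPAN1, a tetraspanin of epithelial membranes, had 0, 0.37 and 1.08 TPM in testis and 2.63, 134 and 688 elsewhere, with bulbourethral gland at 328 TPM or more and epididymis spread from 2.63 to 512. PB.982.26 of SPINT1, an inhibitor of serine proteases on epithelial cells, had at most 0.0711 TPM in testis and 25.1 to 148 elsewhere. PB.3570.172 of GRB7, an adaptor of receptor tyrosine kinases, had at most 0.0991 TPM in testis and 1.31 to 36 elsewhere, and PB.15166.2 of CYBA, a subunit of NADPH oxidase, 8.09 to 18.5 against 46.6 to 314. In these 5 the gene fell with the isoform.

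In CARHSP1 and IQGAP1 it did not. PB.11890.1 of CARHSP1, a cold-shock-domain protein that binds RNA, had 0.132, 0.487 and 2.28 TPM in testis and 9.39, 18.4 and 32.8 elsewhere (-3.45 ± 0.18). Its gene had 59.1, 177 and 241 TPM in testis and 9.39, 18.7 and 32.8 elsewhere, a rise of 3.05 ± 0.18 (adjusted p = 2.68e-14). Outside testis the isoform therefore held 78.6% to 100% of the gene's TPM, and in testis 0.0794% to 3.85%. PB.17720.6 of IQGAP1, a scaffold of the cortical cytoskeleton, was listed at 0 in all testis libraries and at 0.237 to 32.9 TPM elsewhere, while its gene differed by 0.02 ± 0.21 (adjusted p = 0.934). The Iso-seq libraries of testis had 5 and 8 reads of it.

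The share of the gene's TPM sets a change of the isoform apart from a change of its gene. It was tested by limma for transcripts of genes that reached 1 TPM in 3 or more libraries of every gland, where the transcript's mean share was at least 0.01 in testis or in the other glands, with calls at an adjusted p below 0.05 and a difference of at least 10 percentage points (0.1 of the gene). Of 17788 NNC coding isoforms tested, 2080 (11.7%) had a higher share in testis and 912 (5.13%) a lower one, beside 8.68% and 6.58% of all 59174 transcripts tested. The filter on the mean share weighs on these numbers as well, since 3782 of the isoforms passed it through testis alone, and 826 of the 2080 were among these. Among the 14006 with a mean share of at least 0.01 outside testis, 1254 (8.95%) were higher and 912 (6.51%) lower, beside 7.25% and 7.60% of the 51255 transcripts of all kinds that passed in this way. Without the 3 libraries that stood apart the numbers of all tested were 2216 and 935. Of the 2080, the gene was higher in testis for 941, not called for 980 and lower for 159. The isoforms called belonged to 2132 genes, and 458 of these genes had isoforms called in both directions. For comparison, over all tested, NIC isoforms were called higher in 6.73% and lower in 8.21% of 9945, and NNC coding isoforms with predicted NMD in 8.83% and 4.16% of 4826.

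The kind of new site went with the share calls. Isoforms whose one kind of change was a new first exon had a higher share in testis in 18.5% (741 of 4013), those with an intron inside an annotated exon in 16.1% (96 of 598) and those with a new last exon in 14.4% (71 of 494). Those with a shifted site alone (7.07%, 464 of 6564) or a new internal exon alone (6.75% of 1586) lay under the 8.68% of all transcripts. Lower shares were called in 2.84% to 6.13% of each kind. With a mean share of at least 0.01 outside testis the higher calls were 13.4% for a new first exon alone, 15% for an intron inside an annotated exon, 11.5% for a new last exon, 6.24% for a shifted site and 5.90% for a new internal exon, and the lower calls 8.61%, 5.53%, 5.73%, 5.88% and 3.74% in the same order, beside the 7.60% of all. By the same measure, isoforms with a new site absent from RefSeq were called higher in 9.97% of 6914 and lower in 5.09%, and those with all new sites in RefSeq in 7.86% and 7.96% of 6907. These shares describe isoforms, which are not replicates and can belong to one gene.

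**Figure D4:**
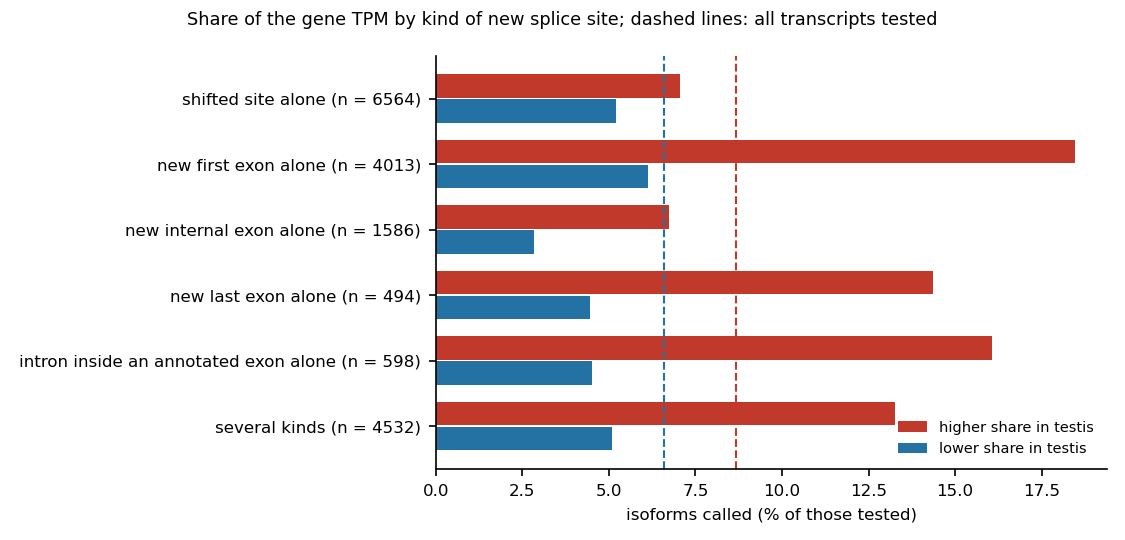
Percent of NNC coding isoforms with a higher (red) or lower (blue) share of the gene's TPM in testis, by the kind of new splice site, with the number tested in parentheses. Dashed lines mark all transcripts tested (8.68% higher, 6.58% lower), and isoforms with a new first exon alone reach 18.5%, counts that include isoforms which passed the filter through the testis share alone, while with a mean share of at least 0.01 outside testis the same kind has 13.4% higher and 8.61% lower.

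Among isoforms called in share whose gene was not called and whose testis libraries did not overlap the others (295 higher and 32 lower with a symbol), those with the largest differences are described here, again with no p-value. The 2 counts cannot be set against each other, since isoforms that passed through the testis share alone could only be called higher. The isoforms of KLF5, TTC39B, FHL1 and KLC3, and PB.11356.8 of CXXC5, passed the filter on the mean share through testis alone. PB.3115.1 of KLF5, a zinc finger transcription factor, held 87.5%, 94.1% and 97.5% of the gene's TPM in testis (lowest, median and highest) and 0% elsewhere but for 18.2% in BMI epididymis replicate 2. The difference was 92.4 percentage points ± 2.14 (SE), and the gene's own level differed by 0.09 ± 0.35 on the log2 scale. The isoform had 21 reads in BMI testis and 1 in DSE testis. PB.1643.47 of TTC39B, a tetratricopeptide repeat protein, held 88.4%, 89.8% and 100% in testis and was listed at 0 in every other library, at a low level of 1.85 to 6.36 TPM in testis. The isoform had 66 and 35 reads in the testis libraries and none elsewhere, and the donor of its first exon is absent from RefSeq as well. PB.21651.10 of FHL1, a LIM domain protein of muscle, held 81.2%, 91.2% and 95.1% in testis and at most 4.42% elsewhere. PB.15783.4 of KLC3, a light chain of kinesin, held 76.8%, 85.6% and 92.3% in testis and was listed at 0 elsewhere, and its coding blocks were those of an Ensembl transcript.

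ARL1, a small GTPase of the Golgi, showed both directions. PB.14980.2 held 96.1%, 98.9% and 99.2% of the gene in testis and 0%, 5.20% and 80.7% elsewhere, where the highest were 80.7% and 47.7% (difference 86.6 points ± 6.17). PB.14980.1 held at most 0.565% in testis and 15.8%, 90.2% and 97.9% elsewhere (-82.6 points ± 7.42). The gene was at 50.1 to 71.0 TPM in testis and 23.5 to 143 elsewhere, and differed by 0.01 ± 0.18. Both isoforms had the same coding blocks as an Ensembl transcript and differed in the first exon. Their full-length reads were few, 2 and 3 in testis and 4 elsewhere for the former, and 0 in testis and 5 elsewhere for the latter. CXXC5, a CXXC zinc finger protein, was the other gene with both. PB.11356.8 held 68.6%, 91.4% and 94.3% in testis and at most 0.858% elsewhere, PB.11356.2 4.31%, 6.32% and 23.8% in testis and 40.7%, 66.3% and 89.9% elsewhere. Full-length reads were 92 and 25 in testis and 1 elsewhere for the former, 4 and 5 in testis and 64 elsewhere for the latter. The level of this gene missed the call narrowly, with a rise of 0.98 ± 0.15 (adjusted p = 1.59e-06).

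Further isoforms had a lower share in testis. PB.19443.10 of STARD10, a lipid transfer protein, held 18.3%, 25.4% and 28.8% in testis and 87.5%, 93.5% and 96.1% elsewhere (-69.0 points ± 1.46). PB.21104.4 of PRDX4, a peroxiredoxin of the endoplasmic reticulum, held 27.5%, 33.6% and 67.5% against 86.9%, 91.4% and 95.6%. Its level in testis, 72.9 to 97.8 TPM, overlapped that elsewhere. PB.9318.2 of GIMAP6, a GTPase of immune cells, held 18.9%, 32.7% and 79.1% against 89.4%, 98.6% and 100%. PB.13320.37 of ASPH, a hydroxylase of the endoplasmic reticulum whose gene also gives proteins of calcium handling, was listed at 0 in 5 of the 6 testis libraries, reached 26.4% in DSE testis replicate 2, and held 39.2%, 54.3% and 70.9% elsewhere. For GIMAP6, CXXC5 PB.11356.2 and PRDX4, too, the highest testis share was that of DSE testis replicate 2.

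**Figure D5:**
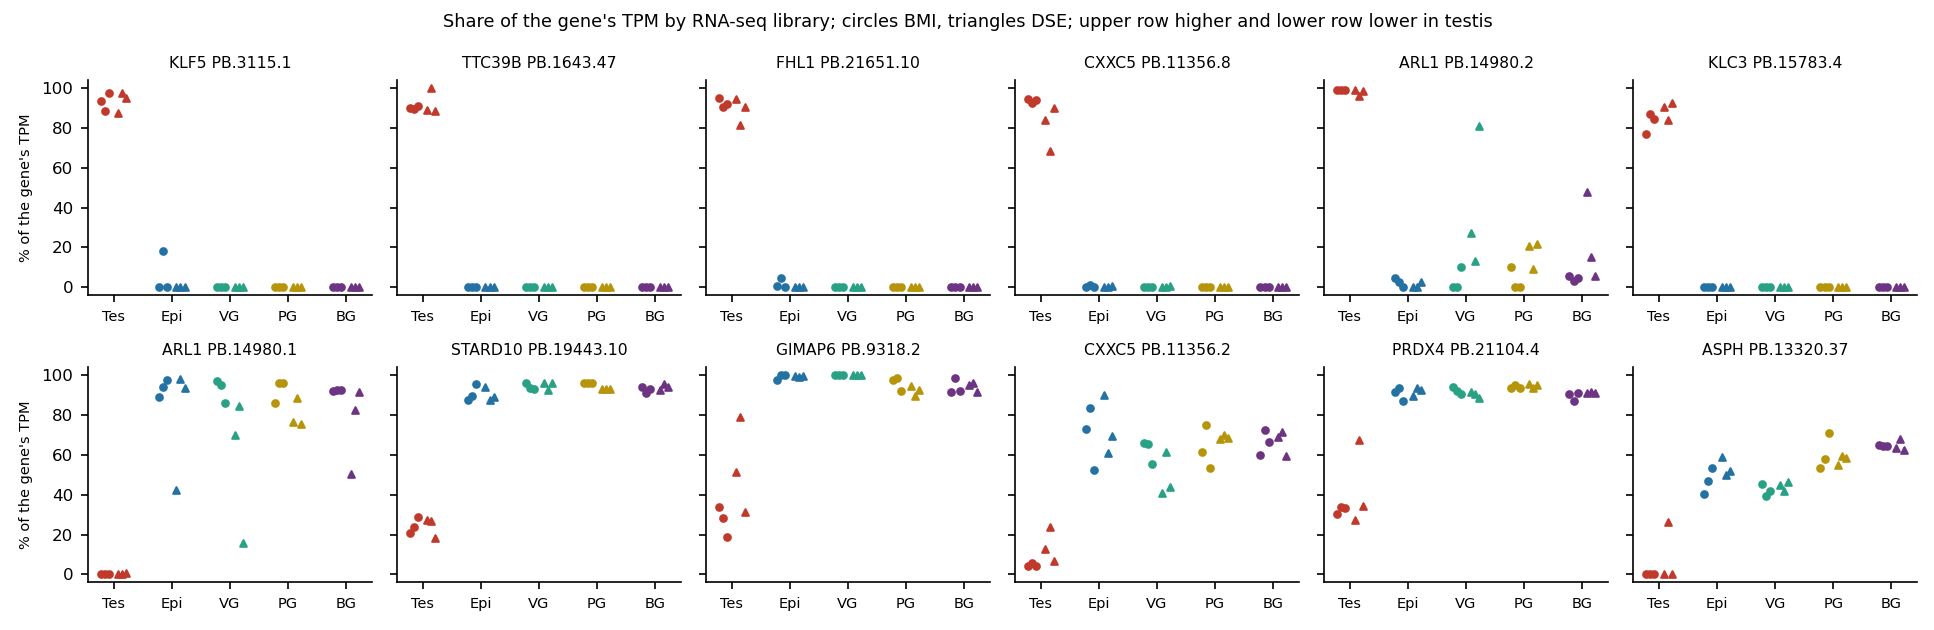
Percent of the gene's TPM held by 12 named isoforms in 30 RNA-seq libraries by gland (Tes testis, Epi epididymis, VG vesicular, PG prostate, BG bulbourethral), with circles for BMI and triangles for DSE. In the upper row testis lies above all other libraries and in the lower row below, and the panels of ARL1 and CXXC5 show 1 isoform in each row.

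Full-length reads gave a second measure of the same contrast. Both breeds' libraries served as the replicates of a gland, with breed as a covariate in edgeR's quasi-likelihood test. Of the 3691 NNC coding isoforms with enough reads to be tested, 1571 were called higher and 230 lower in testis, beside 27.0% and 8.6% of all 15241 isoforms tested. Here too the filter weighs on the higher calls, since 1447 of the isoforms passed it only with the testis libraries and 1383 of the 1571 were among these. Among the 2244 that passed in libraries of other glands, 188 (8.38%) were higher and 230 (10.2%) lower, beside 9.41% and 11% of the 11942 isoforms of all kinds that passed in this way. DESeq2 called 757 higher and 148 lower on the same isoforms. Over all isoforms tested it also called fewer than edgeR in both directions, though the fall was smaller in proportion. With DESeq2, too, the percent higher was larger and the percent lower smaller among NNC coding isoforms than among all, before any regard to the filter. Leaving out 1 library, which lets more isoforms through the filter, moved the counts of NNC coding isoforms. edgeR called 34 lower without BMI testis and 40 without DSE testis, and it called 2419 higher without DSE epididymis, 2360 without either vesicular gland library and 2441 without BMI prostate gland. Of the isoforms called higher in TPM that passed both filters outside testis, 264 were tested in reads, of which 126 (47.7%) were higher and 138 not called, beside 48.2% higher among 809 isoforms of all kinds. Of those called lower in TPM, 418 were tested, of which 124 (29.7%) were lower, 289 not called and 5 higher, beside 30.9% lower among 1218 of all kinds. Both measures come from the same glands, and the TPM rest on the isoform models that the reads gave.

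Gene lists, typed from general knowledge of the tissue, differed in how many of their NNC coding isoforms were called. Most isoforms of germ cell genes passed the filter of 1 TPM only with the testis libraries counted, 86 for axoneme and flagellum genes, 43 of 52 for acrosome and sperm-egg interaction genes, 41 of 52 for meiosis genes and 24 of 35 for piRNA and germ granule genes, so that few were left to compare. Among isoforms that passed without these libraries, 7 of 21 were called higher in testis for axoneme genes, 6 of 9 for acrosome genes, 5 of 11 for meiosis genes with 1 lower and 10 of 11 for piRNA genes with 1 lower, beside 14.8% higher and 12.3% lower of all transcripts that passed in this way. Their medians were -0.04, 2.19, 0.87 and 2.96 on the log2 scale, beside -0.23 over all of these transcripts. With the others included 80, 49, 41 and 30 were higher. Their genes, summed over all transcripts, were higher in 53 of 56, 33 of 34, 29 of 37 and 20 of 21, beside 34.6% of all genes tested. The germ cell markers given above are partly the same genes, so their rise is no separate measure. In share, with a mean of at least 0.01 outside testis, 2 of 14 isoforms of axoneme genes were higher and 1 lower, 7 of 21 of acrosome genes and 2, 1 of 19 of meiosis genes and 1, and 1 of 12 of piRNA genes and 1, beside 7.25% and 7.60% of all. Centrosome and intraflagellar transport genes had 20 of 53 isoforms that passed without testis higher in abundance and 2 lower, ubiquitin ligases and proteases 26 of 101 and 2, and splicing regulators, which bind RNA and steer the choice of sites, 22 of 172 (12.8%) and 14 (8.14%). Secretory pathway genes had 8 of 87 higher and 15 lower, epithelial junction and polarity genes 6 of 44 and 12, and extracellular matrix and adhesion genes 4 of 40 and 10, with medians of -0.31, -0.33 and -0.42 and 17.2%, 27.3% and 25% lower. With isoforms included that passed only with testis, 20, 15 and 6 were higher and 15, 12 and 10 lower. In share, with a mean of at least 0.01 outside testis, 5 of 82, 5 of 39 and 5 of 38 were higher and 5, 5 and 3 lower. Of the genes themselves 11 of 53, 19 of 33 and 26 of 39 were lower in testis and 5, 1 and 2 higher, beside 12.7% lower and 34.6% higher of all genes. Markers of smooth muscle and peritubular cells were lower in testis as well, in 6 of 6 genes, with sums of 220 to 398 TPM in testis (median 253) and 176 to 24295 elsewhere (median 2521), and their part in these counts was not tested.

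The most abundant isoforms of the lists showed the range. PB.10734.36 of IZUMO4, of the IZUMO family of sperm proteins, had 244 to 964 TPM in testis and 3.82 to 18 elsewhere, and 33 and 54 testis reads with none elsewhere. PB.1898.5 of TDRD7, a tudor protein of germ granules, had 33.7 to 158 TPM in testis and at most 8.93 elsewhere, from a new first exon ahead of unchanged coding blocks. PB.5311.17 of IFT57, of the intraflagellar transport complex, had 53.4 to 199 TPM against 4.24 to 18.8 and held 97.8% to 99.5% of its gene in testis and 73.9% to 90.3% elsewhere. PB.5975.1 of HECTD4, a HECT domain ubiquitin ligase, had 45.0% to 61.4% of its gene in testis and 51.0% to 90.9% elsewhere, a share that fell by 18.3 points ± 5.09 (adjusted p = 0.00764), and 2 full-length reads in all. PB.3917.203 of CLDN7, a claudin of tight junctions, had at most 2.37 TPM in testis and 129 to 780.0 elsewhere. PB.7849.80 of FN1, fibronectin, reached 245 to 827 TPM in vesicular gland and at most 2.26 in testis, from 2 full-length reads.

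ODF2, whose protein is part of the outer dense fibres of the sperm tail and of centrosomes, had the most NNC coding isoforms, 55 of its 112 isoforms. They used 7 distinct new donors and 4 distinct new acceptors in different combinations, 49 had a shifted site, and 37 had all new sites in RefSeq. Together they had 442 full-length reads in BMI testis and 576 in DSE testis, against 0 to 7 in each other library, and 39 were read in both testis libraries alone. In RNA-seq they held 37.9%, 43.2% and 48.5% of the TPM of ODF2 in testis and 0%, 2.96% and 19.1% elsewhere. All 28 that were tested for abundance passed the filter only with the testis libraries counted, which favours higher calls. Of these 27 were called higher, beside 4690 of the 5987 NNC coding isoforms that passed in this way. Of 10 tested for share, 1 was higher and none lower. The gene itself had 458 to 1988 TPM in testis and 3.44 to 30.9 elsewhere (log2 difference 7.20 ± 0.22, adjusted p = 5.01e-20). The most abundant, PB.2142.108, had 45.2 to 238 TPM in testis and was listed at 0 in 23 of the 24 others, from 2 and 9 full-length reads.

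The 5 genes whose NNC coding isoforms had the most full-length reads differed in where they were read. PB.6866.108 of PSP-I, a spermadhesin of seminal plasma, had 15198 reads, 4139 in BMI vesicular gland, 7113 in DSE vesicular gland and 3946 in BMI prostate gland, and none in the other 7 libraries. In RNA-seq BMI prostate gland replicate 2 had 82621 TPM of it and the other prostate libraries 1.04 to 5.36. PB.5729.17 of CLU, clusterin, had 7905 reads in DSE epididymis, 2286 in BMI epididymis and 391 and 556 in testis, and held 10.8% to 13.2% of its gene's TPM in testis and 0% to 18.3% elsewhere. Its TPM, 102 to 417 in testis and 0 to 1177 elsewhere, was called higher in testis than in the mean of the other glands (log2 difference 2.76 ± 0.53, adjusted p = 8.34e-05). But testis overlapped epididymis, at 36.6 to 1177 TPM, and bulbourethral gland, at 54.7 to 145 TPM. PB.2098.5 of HSPA5, the chaperone BiP of the endoplasmic reticulum, was read in every library (603 to 1521 reads) and its abundance was not called, at 229.6 to 278 TPM in testis and 9.09 to 1381 elsewhere (-0.03 ± 0.49, adjusted p = 0.967). PB.14738.51 of A2M, a protease inhibitor, had 3268 and 1392 reads in testis and 7 to 108 elsewhere, and 77.1 to 396 TPM in testis against 0.235 to 45.7. PB.4139.2 of GPD1L, an enzyme of glycerol phosphate metabolism, set the assays apart. It had 85 to 3933 reads in each library and at most 8.90 TPM in any, with 8 of the 24 other libraries at 0. Isoforms of a gene share most of their sequence, so short reads divide among them with an uncertainty that TPM do not show.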

How the data were processed

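Per the authors' methods, full-length non-chimeric reads of all Iso-seq libraries were clustered with IsoSeq3, mapped to Sscrofa11.1 with GMAP, collapsed with cDNA_Cupcake and classified with SQANTI3 against Ensembl release 107. The table deposited by the authors gives full-length read counts per isoform and library and, among other columns, the percent of adenine downstream of each isoform's end. The authors quantified trimmed RNA-seq reads with Salmon (1.9.0) on Ensembl transcripts merged with the new isoforms, in TPM, in which 31569 of the 33150 isoforms were listed among 133722 transcripts. Salmon divides reads among isoforms that share sequence.

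Splice sites were compared with the Ensembl transcripts of the deposited annotation and with RefSeq on the same build. The contrast was the mean of the testis groups minus that of the 8 other groups of breed and gland. limma (3.58.1) with an intensity trend was fitted to log2(TPM + 1), to log2(gene TPM + 1) and to the share of gene TPM over all transcripts or genes tested, without a replicate block, and edgeR (4.0.16) to the read counts. For the share, genes had at least 2 transcripts, and transcripts reached a mean share of 0.01 in testis or elsewhere. Adjusted p-values are Benjamini-Hochberg values. Single values per library were compared by exact permutation tests, two-sided. All fits were tested on simulated data. Named isoforms were those with the largest differences under the conditions given beside them, 1 per gene, and the most read or most abundant ones, of which 2 are not reported here. The isoforms, lists and tests were chosen with earlier results of these data known. The small RNA table was not used. Alternatives were another pseudocount, other filters, size factors, DESeq2 (1.42.0), a replicate block, each breed alone and each library left out.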

Additional observations from a re-analysis of the deposited data

Results flagged for a closer look

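The difference between testis and the other glands was itself compared between the breeds, by an interaction term in limma over all transcripts tested. It was called for 969 (5.34%) of the 18149 NNC coding isoforms tested for abundance, beside 3.81% of all transcripts tested, and for 242 (1.36%) of the 17788 tested for share of gene TPM, beside 0.911% of all. Each breed has 3 testis libraries, and 1 of those of DSE is the library that stood apart. Without it, BMI prostate gland replicate 2 and DSE epididymis replicate 1, 688 isoforms were called for abundance, of which 509 were among the 969, and 250 for share, of which 157 were among the 242.

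Among the named isoforms, 2 were called. PB.11356.8 of CXXC5 had 113, 114 and 136 TPM in BMI testis and 33.7, 51.1 and 97.2 TPM in DSE testis, and its rise in testis was smaller in DSE (DSE minus BMI -1.09 ± 0.31 on the log2 scale, adjusted p = 0.0412). Without the 3 libraries the value was -0.75 (adjusted p = 0.216). PB.9318.2 of GIMAP6 held 18.9%, 28.4% and 34.0% of its gene's TPM in BMI testis and 31.4%, 51.6% and 79.1% in DSE testis, a difference of 27.8 percentage points ± 7.22 (adjusted p = 0.0492), and without the 3 libraries of 15 points (adjusted p = 0.164). Both calls were thus lost without these libraries.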

How the results depend on the processing

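Counts of NNC coding isoforms called in abundance, share and gene TPM stayed within 1.5 times their value under every alternative tried but 2. With a pseudocount of 0.1 TPM, 2850 of the 18149 tested were lower in testis. The count over all transcripts rose from 6169 in like proportion, and the percent lower stayed smaller among NNC coding isoforms. For genes with at least 5 TPM, 1240 had a higher and 583 a lower share, with fewer isoforms tested. Over all transcripts the counts of both share calls fell as well. In full-length reads DESeq2 called 757 higher and 148 lower, and without a filter edgeR called 3016 higher and 95 lower. The counts over all isoforms moved in the same directions under both. The difference in TPM share was 3.57 points without the 10 most abundant transcripts (exact p = 1.85e-05) and 0.33 points over Iso-seq isoforms alone (exact p = 0.869). The transcripts left out included NNC coding isoforms in other glands but none in testis. Among isoforms with at least 5 reads, 55.7% had 1 new site, 43.0% a new first exon, 59.4% a shifted site, 53.0% all new sites in RefSeq and 19.9% coding blocks as in Ensembl. Of 1519 alternatives for 41 named results, 12 reversed, all of them for HSPA5, with 0.0012 under size factors and 0.47 in BMI alone. The causes were not tested.

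Leaving out 1 library at a time gave 6425 to 6951 isoforms higher and 1277 to 1472 lower in abundance, 1956 to 2172 higher and 758 to 953 lower in share, and 3259 to 3369 genes higher and 1077 to 1292 lower. In full-length reads the numbers were 1066 to 2441 higher and 34 to 279 lower, with 34 lower without BMI testis and 40 without DSE testis, where 1 testis library remains and is assumed to vary like the other glands. Without DSE epididymis, either vesicular gland library or BMI prostate gland, 2360 to 2441 were higher. The filter then admits more isoforms. The difference in read share was 9.74 to 10.5 points, with an exact p of 0.111 without either testis library, the smallest then possible. The difference in TPM share was 2.93 to 4.0 points, and that of HSPA5 -0.19 to 0.077. Leaving out 3 libraries together was chosen after seeing the data.

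With the replicate number within breed as a block, 6747 isoforms were higher and 1399 lower in abundance, 2097 and 919 in share, and 3328 genes higher and 1175 lower. The main fits did not use the numbers as pairs, since no label states them to be animals. Same-numbered libraries of a breed in different glands deviated together at a median r of 0.045, with 18 of 60 pairs over 0.1. For other-numbered libraries the median was -0.013, with 23 of 120 over 0.1. Among the 3 libraries of another gland, the closest had the same number in 62 of 120 comparisons. Whether the numbers mark the same boars was not settled.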
